A study of Mus musculus with 6 samples.

Results

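Phase II conjugation enzymes were followed across control, DSS and tumor crypts of the mouse colon on Affymetrix expression arrays. Members were the probe sets annotated to exactly 1 gene symbol that begins with Ugt1, Ugt2, Sult, Gsta, Gstk, Gstm, Gsto, Gstp, Gstt, Gstz or Mgst. This rule took 49 of the 22690 probe sets, which stand for 38 genes: 6 UDP-glucuronosyltransferases, 11 sulfotransferases, 18 soluble glutathione S-transferases and 3 microsomal ones. Crypts, the epithelial glands of the colon, came from male Lgr5-lacZ het mice, in which 1 allele of the stem cell receptor gene Lgr5 carries a lacZ reporter, so controls bear it too. Each group had 2 arrays, and each array held material pooled from 2 mice, which for control and DSS crypts was distal colon. Controls were untreated, DSS mice had received 1% dextran sulfate sodium, a polysaccharide that injures the colonic lining, for 2 days, and both were 6 to 8 weeks old. Tumor crypts came from 12 adenomas per array, collected 90 days after azoxymethane (AOM). This colon carcinogen was given at 12.5 mg/kg at an age of 6 to 8 weeks and was followed by DSS cycles of 2, 1.5 and 1.0%. Tumor mice thus differed from controls at least in age, carcinogen, DSS cycles and tumor state together, and these cannot be told apart. No colon region is given here for the adenomas, so region may differ as well. The replicates are called biological in the labels, and 2 arrays per group limit the precision of every value below.

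Conjugation enzymes attach a polar group to drugs, dietary compounds, bile acids, hormones and products of lipid oxidation, which makes them easier to export. UDP-glucuronosyltransferases add glucuronic acid from UDP-glucuronate, sulfotransferases add sulfate from the donor PAPS, and glutathione S-transferases add the tripeptide glutathione. In the colon these enzymes are found in the epithelium that faces luminal compounds, and many of their genes respond to the transcription factors Nrf2, AhR and PXR.

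Of the 38 genes, 26 had a probe set above the median of its array on at least 2 arrays and were tested, and 23 of these were above it on all 6. None of the 26 passed through a single group alone. The other 12 genes (Gsta2, Sult1c1, Sult1e1, Sult2a2, Sult3a1, Sult4a1, Sult5a1, Ugt2a3, Ugt2b1, Ugt2b37, Ugt2b38 and Ugt2b5) had intensities between 0.426 and 45.2, below the median of every array. Of these 12, 8 were below the first quartile on all 6 arrays, and no difference is drawn from any of the 12. Intensities are the deposited MAS5 signals on a linear scale. Differences are on the scale of log2(intensity + 17.8), given as estimate ± SE from a limma fit of all 7456 tested genes on 6 arrays, and a gene is called at an adjusted p (Benjamini-Hochberg over all tested genes) under 0.05.

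Epithelial markers were present throughout: none of the 10 pan-epithelial genes on the array lay below its array's median on all arrays, and their summed intensities were 91783 and 84892 on the control, 102986 and 90403 on the DSS and 85948 and 82570.2 on the tumor arrays. All 9 T and NK cell markers on the array and all 6 neuron and glia markers were below the array median on every array. Median intensities ran from 94.2 to 131, and Pearson's r over the 7456 genes, which are not independent replicates, was 0.971, 0.978 and 0.959 within the control, DSS and tumor groups. It was 0.983 between the control and DSS arrays numbered 1 and 0.986 between those numbered 2, above the values within either group. Both tumor arrays had the lowest log2 ratio of 3' to 5' actin probe sets, a sign of RNA quality, at 0.95 and 1.04 against 1.20 to 1.63 on the other arrays. Poly-A control transcripts, spiked into the RNA, were brightest on DSS replicate 1 (mean 1168) and control replicate 1 (777), and the remaining 4 arrays lay between 312 and 394. A fit with a block for the 2 arrays of high poly-A controls is given beside each call it ended, and the part of the actin ratio in the results was not tested.

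Tumor crypts had lower levels of most conjugation enzymes than control crypts. Of the 26 tested members, 17 fell and 3 rose, where 9.74% of all tested genes were called lower and 12.8% higher. The median log2 difference over the 26 was -0.92, beside 0.05 over all 7456 genes, while replicate 1 of each group gave -0.59 and replicate 2 -0.92. Both tumor arrays were below both control arrays in 21 members and above them in 4, against 27.7% and 33.8% of all genes. All 5 tested sulfotransferases, the 1 tested glucuronosyltransferase, all 3 theta class and all 3 microsomal glutathione S-transferases fell. The risers were Gsta4, Gstm5 and Gstm7. In bulk crypt RNA, fewer cells of a type and less RNA per cell cannot be told apart. The count of members called lower was 9 without control replicate 2, 10 without tumor replicate 2 and 12 to 16 without any other array, and that of members called higher was 0 without control replicate 1, 1 without control replicate 2, tumor replicate 1 or tumor replicate 2, and 2 and 3 without DSS replicates 1 and 2. With each array centred on its median, the median of all genes moved to -0.20 and calls over all genes went from 954 higher and 726 lower to 651 higher and 1227 lower. Under that scaling 18 members were called lower and 1 higher, and under quantile normalization 17 and 3, with 906 genes lower and 883 higher in all.

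**Figure D1:**
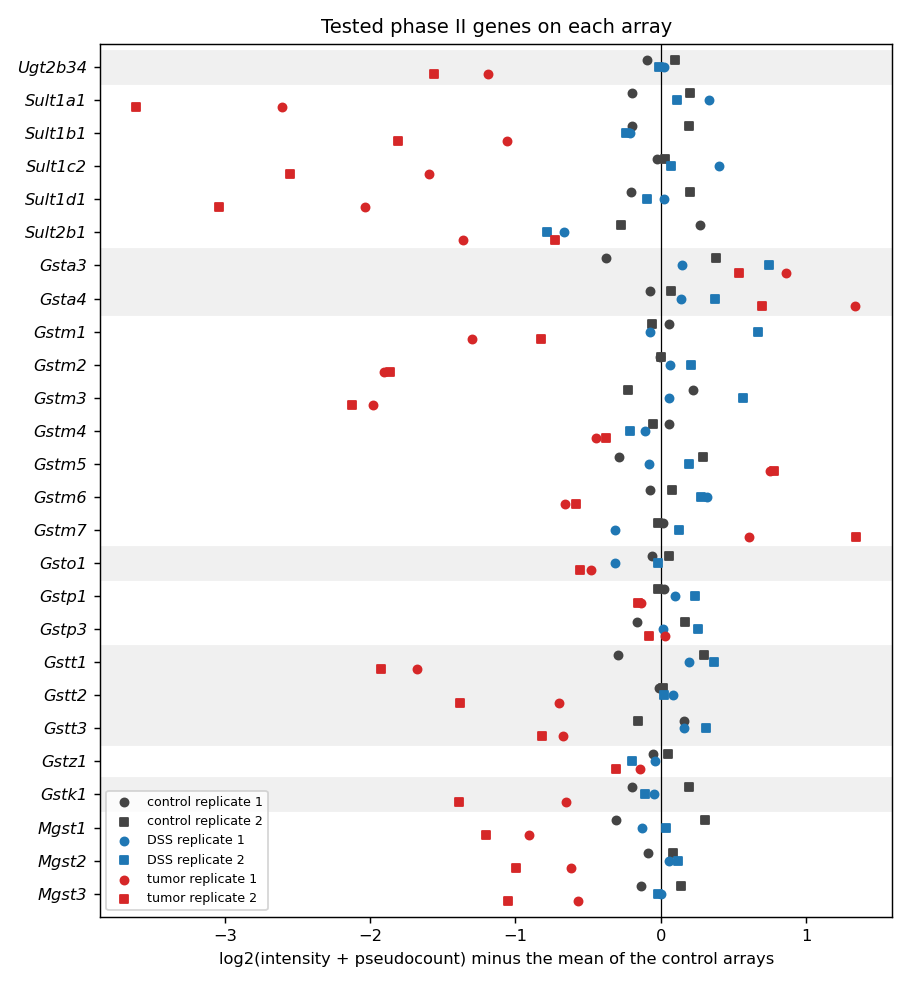
The log2(intensity + 17.8) of each tested gene on each of the 6 arrays, as the difference from the mean of the control arrays (x axis); circles are replicate 1 and squares replicate 2, and shaded bands set off the gene families. The tumor replicate 2 points of Sult1a1 and Sult1d1 lie farthest to the left, while Gsta4, Gstm5 and Gstm7 have both tumor points to the right of all their control and DSS points.

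All 5 tested sulfotransferases fell, Sult1a1 and Sult1d1 the most among the members. Sult1a1, the main phenol sulfotransferase, measured 5719.6 and 7561 on the control arrays, 8289.9 and 7104 on the DSS arrays and 1065 and 522 on the tumor arrays. Both tumor values were far below all 4 others, and the tumor mean was 11.9% of the control mean, a log2 difference of -3.11 ± 0.31 (limma, adjusted p = 0.000437). Sult1d1, which sulfates catecholamines and other amines, measured 4933 and 6555 on the control arrays, 5780.1 and 5314 on the DSS arrays and 1376 and 674 on the tumor arrays. Its tumor arrays again did not overlap with any other, with a difference of -2.54 ± 0.31 (limma, adjusted p = 0.00104) and one of -2.45 on its second probe set. Sult1c2, a phenol sulfotransferase, measured 1169 and 1215 on the control arrays, 1578 and 1250.0 on the DSS arrays and 383 and 189 on the tumor arrays. The groups were apart in the same way, with a difference of -2.07 ± 0.29 (limma, adjusted p = 0.00227). In each of these genes tumor replicate 2 was the lower of the tumor arrays.

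Sult1b1, which sulfates thyroid hormones and phenols in the gut, measured 4053 and 5325 on the control arrays, 4014 and 3939 on the DSS arrays and 2220.1 and 1313 on the tumor arrays. It fell by 1.43 on the log2 scale (SE 0.25, limma, adjusted p = 0.00568), with both tumor arrays below all others. Sult2b1, a hydroxysteroid sulfotransferase that acts on cholesterol, measured 341 and 229 on the control arrays, 169.9 and 155 on the DSS arrays and 97.7 and 162 on the tumor arrays. Its DSS and tumor values overlapped and were all below both control values, and its tumor minus control difference was -1.05 ± 0.29 (limma, adjusted p = 0.0346). Its call ended with no filter (-1.05), without control replicate 1 (-0.78), without control replicate 2 (-1.32), without DSS replicate 1 (-1.05), without tumor replicate 1 (-0.73), with only the compared groups fitted (-1.05) or with a block for the arrays of high poly-A controls (-0.88). The other 4 sulfotransferases kept their calls under all 19 alternatives. The 6 sulfotransferases not tested, among them the estrogen sulfotransferase Sult1e1, had a highest intensity of 33.6 on any array.

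In RefSeq's GRCm38.p6 gene table, Sult1b1, Sult1d1 and Sult1e1 follow each other on chromosome 5 with no other protein-coding gene between them, next to the Ugt2 cluster. Sult1b1 and Sult1d1 fell while Sult1e1 was near the floor in every group (0.81 to 14.6). The promoters of the members with the largest falls are shown for the size of these falls alone. They are the 250 bases before the start site of Sult1a1 (chr7:126676419-126676668, minus strand) and of Sult1d1 (chr5:87569007-87569256, minus strand), from RefSeq, build GRCm38.p6, 5′ to 3′. Capitals mark the core of the xenobiotic response element bound by AhR (GCGTG on either strand, so CACGC where it lies on the other one). Sult1a1 held neither this core nor that of the antioxidant response element bound by Nrf2 (TGACNNNGC), and Sult1d1 held 1 xenobiotic core.
Sult1a1: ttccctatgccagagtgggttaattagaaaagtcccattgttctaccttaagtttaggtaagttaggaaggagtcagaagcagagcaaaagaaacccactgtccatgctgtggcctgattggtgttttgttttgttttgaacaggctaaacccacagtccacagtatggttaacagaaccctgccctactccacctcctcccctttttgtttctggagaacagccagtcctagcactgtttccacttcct
Sult1d1: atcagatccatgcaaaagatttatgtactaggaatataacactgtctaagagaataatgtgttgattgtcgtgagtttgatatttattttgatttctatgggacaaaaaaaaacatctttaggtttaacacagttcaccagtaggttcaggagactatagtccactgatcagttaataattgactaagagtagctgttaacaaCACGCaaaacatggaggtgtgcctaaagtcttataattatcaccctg
Over the 44 promoter windows of 300 bases (250 before to 50 after a start) that matched 34 of the 38 members by gene identifier, 11, or 25%, held the xenobiotic core and 4, or 9.09%, the antioxidant core, against 32.4% and 12.4% of all 32851 windows in the table. The HNF1 palindrome and the DR1 direct repeat of nuclear receptors, both searched on both strands, were in 0 member windows and in 0.01% and 0.04% of all windows. Exact matches this rare would hardly ever fall in 44 windows, so nothing about the members is drawn from the 0.

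Glucuronosyltransferases were represented by Ugt2b34 alone, since the other 5 members of this class were below the filter and no probe set was annotated to a single Ugt1 symbol. Ugt2b34, a family 2 glucuronosyltransferase, measured 6144 and 7038 on the control arrays, 6687 and 6507 on the DSS arrays and 2874 and 2219 on the tumor arrays. Tumor values lay below all 4 others at 38.6% of the control mean, a difference of -1.37 ± 0.17 (limma, adjusted p = 0.00121), and its other probe set gave -1.49. Outside the rule, 3 probe sets were annotated jointly to 8 symbols of the Ugt1a family, whose transcripts share their last exons, so they report the family and no single member. The brightest of them measured 8959.8 and 8459 on the control arrays, 9982 and 9103 on the DSS arrays and 3519 and 2824 on the tumor arrays. Added to a fit of every probe set, the 3 had tumor minus control differences of -1.46, -1.35 and -1.70 (limma, adjusted p = 0.000779, 0.00195 and 0.00125), and DSS minus control differences of 0.13, 0.08 and 0.05.

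**Figure D2:**
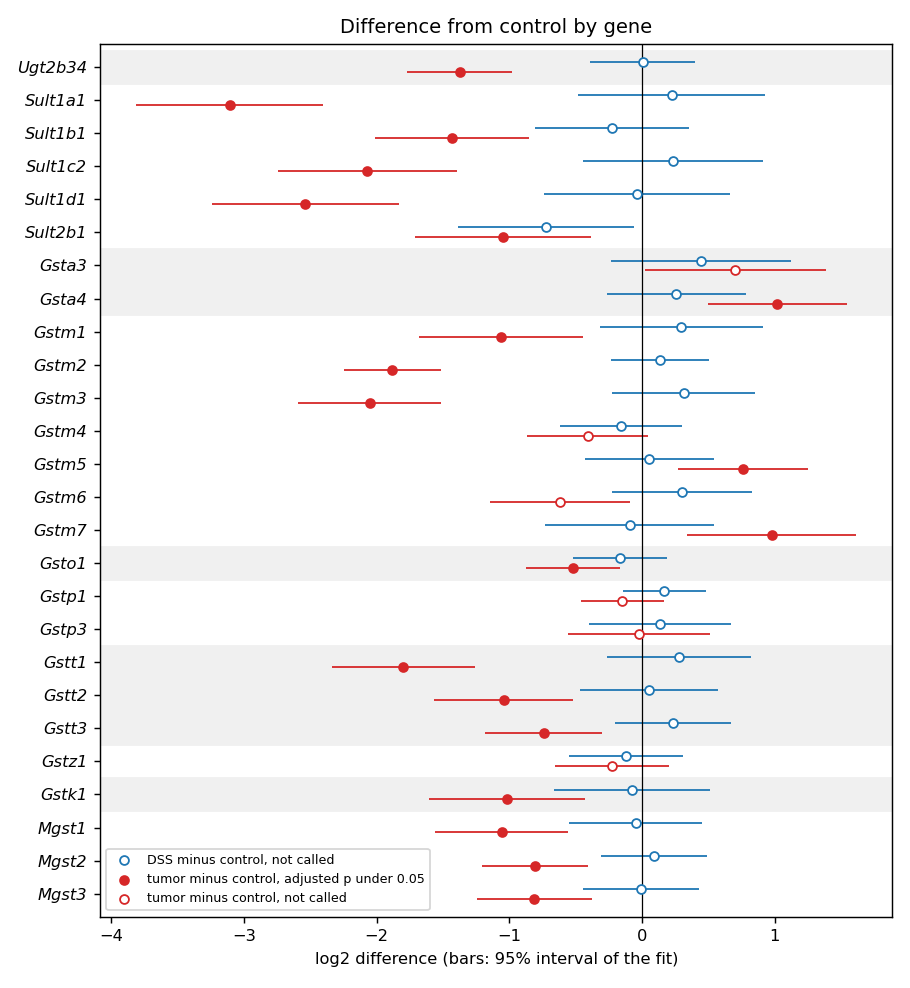
Log2 differences from control (x axis) for each tested gene in DSS crypts (blue) and tumor crypts (red), with 95% intervals of the limma fit as bars; filled points have an adjusted p under 0.05. No DSS point is filled, while 17 tumor points to the left of 0 and 3 to the right are.

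The mu class, whose 7 genes conjugate a broad range of electrophiles, was split between falls and rises. Gstm2 measured 1097 and 1103 on the control arrays, 1151 and 1272 on the DSS arrays and 281 and 289.8 on the tumor arrays. The tumor arrays held 25.9% of the control mean, with a difference of -1.88 ± 0.16 (limma, adjusted p = 0.000231). Gstm3 measured 859 and 626 on the control arrays, 763 and 1096 on the DSS arrays and 173 and 154 on the tumor arrays, with a difference of -2.05 ± 0.23 (limma, adjusted p = 0.000817). Its other probe set, below the filter at 7.14 to 94.2, gave -0.77. Gstm1 measured 1191 and 1098 on the control arrays, 1084 and 1828 on the DSS arrays and 454 and 638 on the tumor arrays. It had a difference of -1.06 ± 0.27 (limma, adjusted p = 0.0252), and its other 3 probe sets gave -1.33, -1.16 and -0.38. In all 3 of these genes both tumor arrays were below the other 4.

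Gstm5 and Gstm7 went the other way. Gstm5, known mainly from brain and testis, measured 1804 and 2700.2 on the control arrays, 2085 and 2527 on the DSS arrays and 3728 and 3793 on the tumor arrays. Tumor values were above all others at 167% of the control mean, a difference of 0.76 ± 0.21 (limma, adjusted p = 0.0358). Gstm7 measured 209 and 204 on the control arrays, 163 and 227 on the DSS arrays and 324 and 553 on the tumor arrays. Its tumor values were also above all others, at 212% of the control mean, a difference of 0.98 ± 0.28 (limma, adjusted p = 0.0379). Its second probe set, below the filter at 15.9 to 40.9, gave -0.17. Gstm6 and Gstm4 did not pass, at -0.62 ± 0.23 (limma, adjusted p = 0.0878) and -0.41 ± 0.20 (limma, adjusted p = 0.176). Gstm1 lost its call without control replicate 1 (adjusted p = 0.0907 by limma), without control replicate 2 (-1.12) or without tumor replicate 1 (-0.82). Gstm5 lost its call under median centring (0.52), with no filter (0.76), without control replicate 1 (0.48), without DSS replicate 1 (0.76), without tumor replicate 1 (0.78), without tumor replicate 2 (0.75), without an intensity trend (0.76) or with a block for the arrays of high poly-A controls (0.55). Gstm7 lost its call with no filter (0.98), without control replicate 1 (0.99), without control replicate 2 (0.96), without tumor replicate 2 (0.61) or with a block for the arrays of high poly-A controls (0.88). Mu class genes are close in sequence, and signals of probe sets marked _x_at or _s_at, as for Gstm1 and Gstm3 here, can include a paralog's transcripts.

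These 7 genes stand in 1 cluster on mouse chromosome 3, with no other protein-coding gene between them in RefSeq's GRCm38.p6 gene table, in the order Gstm5, Gstm7, Gstm6, Gstm3, Gstm2, Gstm1 and Gstm4. The risers Gstm5 and Gstm7 are neighbours at one end, and Gstm3, Gstm2 and Gstm1, which fell, are consecutive. The promoters of both risers and of the members with the largest falls are shown to set the opposite directions side by side. They are the 250 bases before the most upstream start of Gstm5 (chr3:107895604-107895853, plus strand), Gstm7 (chr3:107931818-107932067, minus strand), Gstm2 (chr3:107986421-107986670, minus strand) and Gstm3 (chr3:107969175-107969424, minus strand), from RefSeq, build GRCm38.p6, 5′ to 3′. Capitals mark antioxidant cores (TGACNNNGC) and xenobiotic cores (GCGTG) on either strand.
Gstm5: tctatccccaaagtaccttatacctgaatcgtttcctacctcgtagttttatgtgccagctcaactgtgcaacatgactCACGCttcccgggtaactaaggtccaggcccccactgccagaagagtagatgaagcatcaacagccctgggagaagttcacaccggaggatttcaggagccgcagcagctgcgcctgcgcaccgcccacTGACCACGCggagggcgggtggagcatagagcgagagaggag
Gstm7: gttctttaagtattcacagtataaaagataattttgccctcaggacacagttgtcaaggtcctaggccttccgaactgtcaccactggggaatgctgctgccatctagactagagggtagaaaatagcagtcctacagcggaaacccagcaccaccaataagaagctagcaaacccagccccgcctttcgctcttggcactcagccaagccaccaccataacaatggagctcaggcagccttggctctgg
Gstm2: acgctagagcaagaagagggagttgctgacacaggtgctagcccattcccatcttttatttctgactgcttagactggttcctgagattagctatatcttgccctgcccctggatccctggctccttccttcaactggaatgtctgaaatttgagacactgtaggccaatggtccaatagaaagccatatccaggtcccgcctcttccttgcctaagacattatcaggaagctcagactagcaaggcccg
Gstm3: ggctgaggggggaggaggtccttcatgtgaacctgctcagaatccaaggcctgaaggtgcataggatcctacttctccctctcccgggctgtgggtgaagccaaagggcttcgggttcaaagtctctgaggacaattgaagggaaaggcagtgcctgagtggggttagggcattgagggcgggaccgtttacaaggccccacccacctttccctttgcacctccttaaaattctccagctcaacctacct
Of these stretches only that of Gstm5 held either core: an antioxidant core at bases 209 to 217, which overlaps a xenobiotic core at 213 to 217, and another xenobiotic core at 80 to 84. A second start site is listed for Gstm7, and its window held an antioxidant core 74 bases downstream of the first start. The windows of Gstm2, Gstm3, Gstm4 and Gstm6 held neither core, and those of Gstm1 a xenobiotic core. A match of these letters is not evidence of binding.

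**Figure D3:**
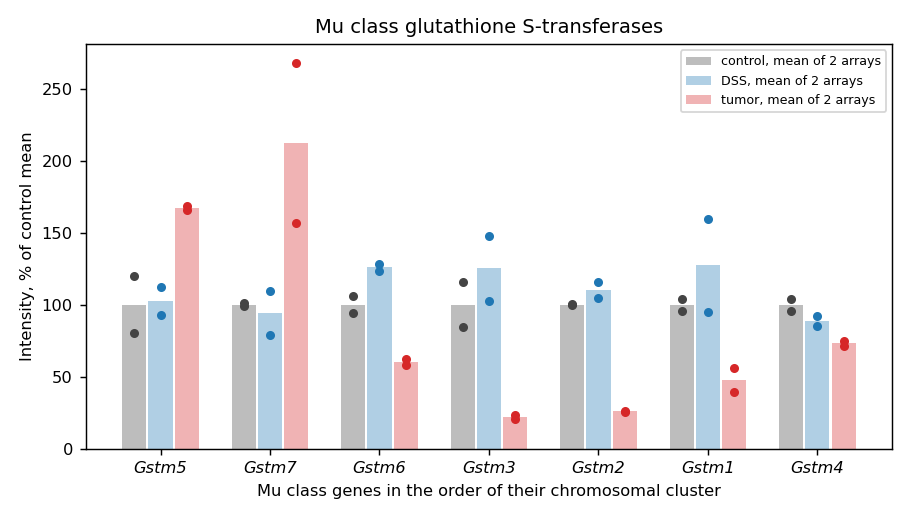
Intensity of the 7 mu class genes as a percentage of each gene's control mean (y axis), in the order of their chromosomal cluster (x axis); bars are means of 2 arrays and points single arrays. Both tumor points of Gstm5 and Gstm7 lie above those of control, and the lowest tumor bars are those of Gstm3 and Gstm2 (25.9%).

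In the alpha class, Gsta4, which clears the lipid peroxidation product 4-hydroxynonenal, rose. It measured 1026 and 1137 on the control arrays, 1192 and 1405 on the DSS arrays and 2760.0 and 1766 on the tumor arrays. Tumor values lay above all others at 209% of the control mean, a difference of 1.02 ± 0.23 (limma, adjusted p = 0.0157). Its call ended under median centring (0.77), without control replicate 1 (0.95), without control replicate 2 (1.09) or without tumor replicate 1 (0.70). Gsta3 had values of 311 and 538 on the control arrays, 456 and 698 on the DSS arrays and 759 and 605 on the tumor arrays, with a difference of 0.70 ± 0.30 that did not pass (limma, adjusted p = 0.127). Its tumor values were above control but overlapped with DSS, and the difference was -0.06 on its other probe set. A probe set shared by Gsta1, Gsta2 and Gm3776, outside the rule, had a difference of -0.44 in the fit of every probe set (limma, adjusted p = 0.0756). It measured 1739.6 and 1753 on the control arrays, 1203 and 1266 on the DSS arrays and 1301 and 1259 on the tumor arrays, so both other groups were below control, with DSS minus control at -0.49 (limma, adjusted p = 1.0) and tumor minus DSS at 0.05.

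The theta class, which acts on small halogenated compounds, fell throughout. Gstt1 measured 409 and 627 on the control arrays, 581 and 657 on the DSS arrays and 146 and 120.3 on the tumor arrays. Tumor arrays were below all others at 25.8% of the control mean, a difference of -1.80 ± 0.24 (limma, adjusted p = 0.00149). Gstt2 measured 1185 and 1209.5 on the control arrays, 1269 and 1217 on the DSS arrays and 729 and 448 on the tumor arrays and had a difference of -1.04 ± 0.23 (limma, adjusted p = 0.0143). Gstt3 measured 480.3 and 382 on the control arrays, 481 and 536 on the DSS arrays and 263 and 236 on the tumor arrays and had one of -0.74 ± 0.19 (limma, adjusted p = 0.0266). Both tumor arrays were below the other 4 in these genes too. Gstt2 lost its call without control replicate 1 (-1.06), without control replicate 2 (-1.03) or without tumor replicate 2 (-0.70). Gstt3 lost its call without control replicate 1 (-0.58), without DSS replicate 1 (-0.74), without tumor replicate 2 (-0.67), with only the compared groups fitted (-0.74) or with a block for the arrays of high poly-A controls (-0.70). Gstt1 kept its call under all 19 alternatives.

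Kappa and microsomal enzymes, which sit in mitochondria, peroxisomes and the endoplasmic reticulum membrane, fell. Gstk1, the kappa class enzyme, measured 1443 and 1896 on the control arrays, 1599 and 1531 on the DSS arrays and 1047 and 620.4 on the tumor arrays. Its difference was -1.02 ± 0.26 (limma, adjusted p = 0.0245). Mgst1, a membrane transferase and peroxidase, measured 7310.4 and 11188 on the control arrays, 8266 and 9254 on the DSS arrays and 4808 and 3910.2 on the tumor arrays. Its tumor mean was 47.1% of control, a difference of -1.06 ± 0.22 (limma, adjusted p = 0.0113). Mgst2, which can make leukotriene C4, measured 4335 and 4885 on the control arrays, 4793 and 5001 on the DSS arrays and 2988 and 2302 on the tumor arrays, with a difference of -0.81 ± 0.17 (limma, adjusted p = 0.0132). Mgst3 measured 10632 and 12876 on the control arrays, 11696 and 11566 on the DSS arrays and 7889 and 5624 on the tumor arrays, with a difference of -0.81 ± 0.19 (limma, adjusted p = 0.0189) and one of -1.20 on a dimmer probe set. In these 4 genes both tumor arrays were below all others. Gstk1 lost its call without control replicate 2 (-0.83) or without tumor replicate 2 (-0.65). Mgst1 lost its call without control replicate 2 (-0.75) or without tumor replicate 2 (-0.91). Mgst2 lost its call without control replicate 2 (-0.72) or without tumor replicate 2 (-0.62). Mgst3 lost its call without control replicate 2 (-0.67) or without tumor replicate 2 (-0.57).

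Of the 4 tested pi, omega and zeta class enzymes, 1 was called. Gstp1, the pi class enzyme of many epithelia, measured 8921 and 8657 on the control arrays, 9396 and 10373 on the DSS arrays and 7985 and 7869.8 on the tumor arrays. The tumor minus control difference was -0.15 ± 0.14 (limma, adjusted p = 0.469), with a 95% interval of -0.46 to 0.16. For its paralog Gstp3 the interval was -0.56 to 0.51, and for Gstz1, maleylacetoacetate isomerase of tyrosine breakdown, -0.66 to 0.20. Gsto1, a thioltransferase that also reduces dehydroascorbate, measured 8815 and 9547 on the control arrays, 7387 and 9074 on the DSS arrays and 6571 and 6227 on the tumor arrays. Its difference of -0.52 ± 0.15 passed narrowly (limma, adjusted p = 0.0449), with -0.49 on its other probe set. Its call ended with quantile normalization (-0.37), with no filter (-0.52), without control replicate 1 (-0.58), without control replicate 2 (-0.46), without DSS replicate 1 (-0.52), without DSS replicate 2 (-0.52), without tumor replicate 1 (-0.56), without tumor replicate 2 (-0.48), without an intensity trend (-0.52), with only the compared groups fitted (-0.52) or with the replicate number as a block and only these groups fitted (-0.52).

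**Figure D4:**
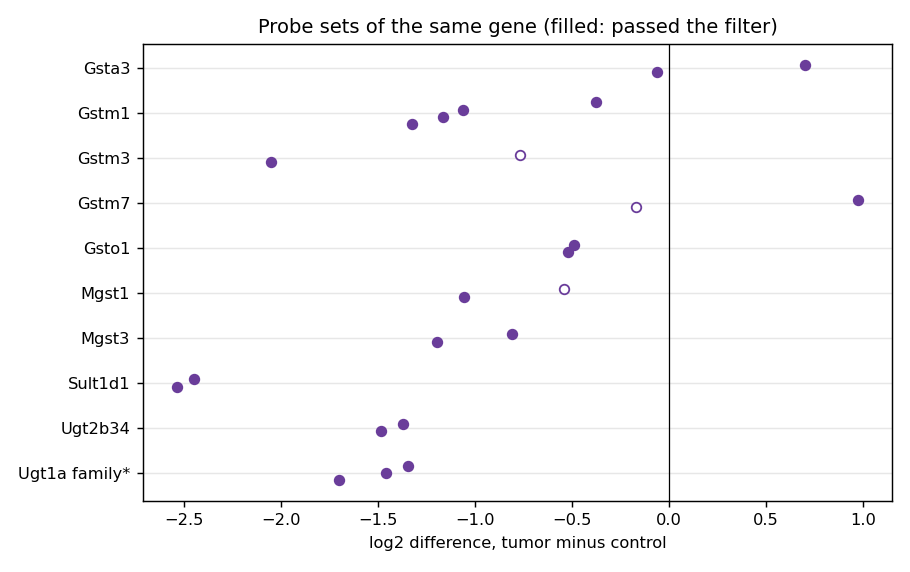
Tumor minus control log2 differences (x axis) of each probe set of the 9 member genes with more than 1, and of the 3 probe sets shared by Ugt1a family symbols (marked *, not members); filled points passed the filter. Signs differ between probe sets only for Gsta3 and Gstm7.

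Markers of mature colonocytes, goblet cells and enteroendocrine cells fell in tumor crypts too. Of 19 mature colonocyte genes tested, 13 fell and 0 rose (median -1.58), where 9.74% of all tested genes were called lower and 12.8% higher. The summed intensity of the list was 112285 and 118340.0 on the control, 106009 and 111413 on the DSS and 44907 and 41796 on the tumor arrays. Goblet cell markers fell in 6 of 9 cases and enteroendocrine markers in 8 of 9, and their sums were 54471 and 38569 and 2477 and 1989 on the tumor arrays against 77302 to 91223 and 8708 to 13193 on the other arrays. Tuft cell markers summed to 1074 and 1641 on the tumor arrays and 316 to 494 elsewhere. Of 2 tested tuft cell genes 1 was called higher and 0 lower, and 4 of 6 on the array were below the array median on every array. Pan-epithelial genes had a median of -0.04, with 1 of 10 called, higher. Sums of neutrophil markers were 1059 and 11598 on the tumor arrays and 104 to 165 elsewhere, and those of macrophage markers 5408 and 10114 and 1905 to 2606. Fibroblast markers summed to 2982 and 6132 on the control, 3891 and 7502 on the DSS and 5401 and 16419.7 on the tumor arrays. Of the 11 tested, 7 had a difference below 0 (median -0.50), with 2 called higher and 0 lower. Smooth muscle markers summed to 1372 and 4087 on the control, 1801 and 3873 on the DSS and 845 and 1730 on the tumor arrays. In both lists replicate 2 had the larger sum in each group. The smooth muscle markers Lmod1 and Synpo2 were below the array median on every array. Of these lists, 5 of 8 neutrophil markers on the array (Camp, Csf3r, Cxcr2, Elane and Mpo) and 2 of 11 macrophage markers (Fcgr1 and Itgam) were below the array median on every array. The part of these cell types in the members' differences was not tested.

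Of 10 tested genes that supply the donors of conjugation, 5 fell in tumor crypts and 0 rose, with a median of -0.57. Over all tested genes 9.74% were called lower and 12.8% higher. The sulfate transporter Slc26a2 measured 6610.3 and 6782 on the control arrays, 8745 and 7177 on the DSS arrays and 1295 and 1086 on the tumor arrays, a difference of -2.48 ± 0.17 (limma, adjusted p = 9.37e-05). UDP-glucose dehydrogenase, Ugdh, which makes UDP-glucuronate, measured 4780.4 and 6095 on the control arrays, 4862 and 6128 on the DSS arrays and 1454 and 1574 on the tumor arrays, a difference of -1.82 ± 0.19 (limma, adjusted p = 0.000502), and Ugp2, which makes its precursor, had one of -0.80 ± 0.14 (limma, adjusted p = 0.00557). Tumor values of all 3 were below all others. Of 5 tested efflux pumps 3 fell and 1 rose. Abcb1a (P-glycoprotein) had a difference of -2.64 ± 0.17, Abcg2 one of -2.15 ± 0.18 and Abcc1 one of 1.11 ± 0.21 (limma, adjusted p = 6.45e-05, 0.000231 and 0.00814). Abcg2 measured 2153 and 2848 on the control, 1213 and 1288 on the DSS and 555 and 537 on the tumor arrays. Its DSS minus control difference of -0.98 ± 0.18 was not called (limma, adjusted p = 0.516). In that comparison 3 of the 5 pumps were higher and 2 lower, with 0 called.

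Over all tested genes 12.8% were called higher and 9.74% lower in tumor against control crypts, for comparison with the lists that follow. Glutathione synthesis and recycling genes showed no common direction, with 2 of 17 tested higher, 2 lower and a median of -0.04. The falls were Dpep1, a dipeptidase that trims glutathione conjugates (-4.03), and Cth, which makes cysteine (-1.88), while the epithelial glutathione peroxidase Gpx2 rose (0.76; limma, adjusted p = 0.00065, 0.000763 and 0.00628). Enzymes that undo conjugation or hydrolyse epoxides were split 2 to 2 among 5 tested: beta-glucuronidase, Gusb, rose by 1.45 and the epoxide hydrolase Ephx1 by 1.04, and Ephx2 fell by 0.93 on the log2 scale (limma, adjusted p = 0.00423, 0.0091 and 0.0281). Of 20 tested transcriptional regulators 3 rose and 4 fell, led by the vitamin D receptor Vdr at -1.83, Mafg, a partner of Nrf2, at 1.49 and the glucocorticoid receptor Nr3c1 at -1.13 (limma, adjusted p = 0.000293, 0.00294 and 0.00417). Of 13 tested Nrf2 targets outside conjugation 1 rose and 3 fell, namely the carbonyl reductases Cbr1 (-1.18) and Cbr3 (-1.25) and the aldo-keto reductase Akr1c13 (-0.97; limma, adjusted p = 0.00456, 0.00733 and 0.0127). Among 7 tested other conjugating enzymes 0 were called by limma and 4 had an unadjusted p under 0.05 (36.6% of all genes), with a median of -0.50. Gpx2 lost its call under median centring (0.51). Ephx2 lost its call with no filter (-0.93), without control replicate 2 (-0.63), without tumor replicate 1 (-0.79) or without tumor replicate 2 (-1.07). Cbr3 lost its call without control replicate 2 (-1.10). Akr1c13 lost its call without control replicate 2 (-0.74) or without tumor replicate 2 (-0.78).

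**Figure D5:**
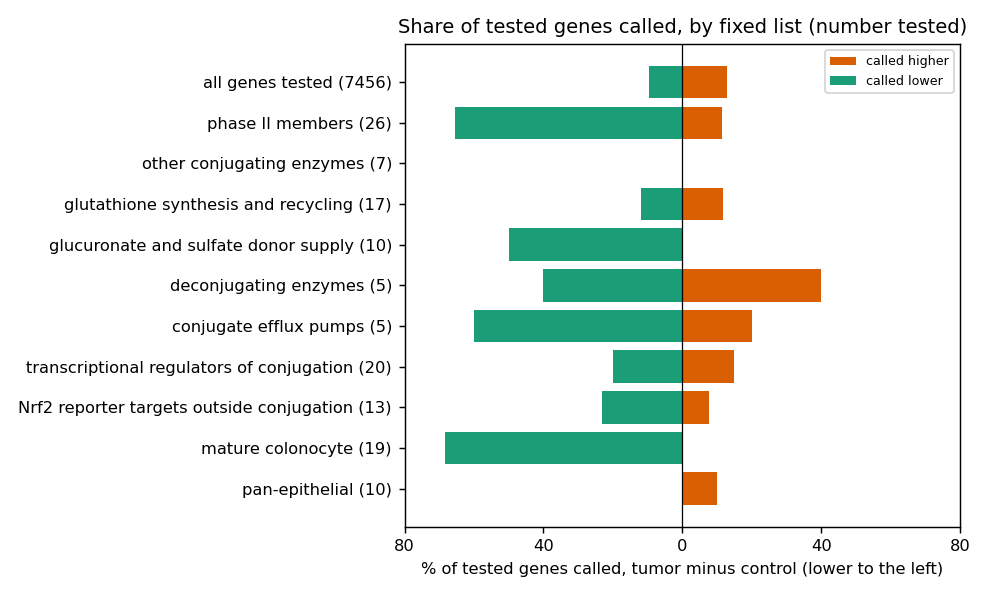
Percentage of tested genes called in tumor against control crypts (x axis), lower to the left and higher to the right, for all genes, the phase II members and fixed lists, with the number tested in parentheses. The phase II members have 17 of 26 lower and 3 higher, against 9.74% and 12.8% of all genes, and mature colonocyte genes 13 of 19 lower.

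Early DSS exposure was next set against control. No member was called in DSS crypts, as was the case for all 7456 genes (0%), and 1 of the 26 members had an unadjusted p under 0.05 in limma, against 2.53% of all genes. The median difference over the members was 0.07, beside 0.00449 over all genes, and 24 of the 26 lay within 0.35 of 0 in either direction. The exceptions were Gsta3 at 0.44 ± 0.30 and Sult2b1 at -0.72 ± 0.29, the member of smallest p (unadjusted 0.0358, adjusted 1.0 by limma), at -0.45 without control replicate 1. Sult2b1 had 341 and 229 on the control arrays and 169.9 and 155 on the DSS arrays, so its DSS values were both the lower ones. In 7 members the DSS arrays were both above the control arrays and in 3 both below, against 12.8% and 13.7% of all genes.

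The intervals of single members were wide. For Sult1a1 the 95% interval of the DSS minus control difference was -0.48 to 0.93, for Ugt2b34 -0.39 to 0.40, for Gstm2 -0.23 to 0.50 and for Gstp1 -0.14 to 0.48. The absence of calls does not show that the groups are alike. By class, median differences were -0.04 for the 5 sulfotransferases, 0.14 for the mu class, 0.24 for the theta class and -0.00853 for the microsomal enzymes. The sulfotransferase median was 0.23 for replicate 1 of both groups and -0.30 for replicate 2. Mature colonocyte genes had a median of -0.22 in the same comparison, with 0 of 19 called.

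Tumor crypts were also compared with DSS crypts, for which the tumor arrays are the same as above. Of the 26 members 16 were lower and 3 higher, where 11.3% of all tested genes were called lower and 14.8% higher, and both tumor arrays were below both DSS arrays in 19 and above them in 3 (30.7% and 35.3% of all genes). The median difference was -0.93 beside 0.04 over all genes. With median centring, calls over all genes went from 1107 higher and 843 lower to 697 and 1257, and those among members to 1 higher and 16 lower. Members called higher were 0 without DSS replicate 1, 1 without DSS replicate 2 or either tumor array and 2 without either control array, and members called lower 11 to 16. The sulfotransferases Sult1a1, Sult1d1 and Sult1c2 and the mu class Gstm3 again had large falls, with differences of -3.33 ± 0.31, -2.50 ± 0.31, -2.31 ± 0.29 and -2.36 ± 0.23 (limma, adjusted p = 0.000277, 0.000942, 0.00119 and 0.000382). Gstt1 and Gstm2 were at -2.08 ± 0.24 and -2.02 ± 0.16 (limma, adjusted p = 0.00071 and 0.000158). Ugt2b34 fell by 1.38 (adjusted p = 0.00105 by limma).

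Gstm6, which had not passed against control, fell against DSS crypts. It measured 131 and 148 on the control arrays, 179 and 173 on the DSS arrays and 81.6 and 87.2 on the tumor arrays, so that its DSS values were the highest and its tumor values the lowest, with a difference of -0.92 ± 0.23 (limma, adjusted p = 0.0211). Sult2b1 and Gsto1, called against control, were at -0.32 ± 0.29 and -0.36 ± 0.15 against DSS and did not pass (limma, adjusted p = 0.45 and 0.129). The other probe set of Gsto1 did pass in a fit of every probe set, at -0.51 (limma, adjusted p = 0.0324). The remaining falls were Gstm1 at -1.36, Sult1b1 at -1.21, Gstt2 at -1.10, Mgst1 at -1.01, Gstt3 at -0.98, Gstk1 at -0.94, Mgst2 at -0.90 and Mgst3 at -0.80. Gstm7, Gsta4 and Gstm5 rose by 1.07, 0.76 and 0.71 (limma, adjusted p = 0.0247, 0.0403 and 0.0417). Gsta4 lost its call under median centring (0.53), with no filter (0.76), without control replicate 1 (0.76), without control replicate 2 (0.76), without DSS replicate 1 (0.65), without DSS replicate 2 (0.88), without tumor replicate 1 (0.44), without an intensity trend (0.76), with only the compared groups fitted (0.76) or with a block for the arrays of high poly-A controls (0.67). Gstk1 lost its call with no filter (-0.94), without DSS replicate 1 (-0.91), without DSS replicate 2 (-0.97), without tumor replicate 2 (-0.57) or with a block for the arrays of high poly-A controls (-1.02). Gstm5 lost its call under median centring (0.47), with no filter (0.71), without DSS replicate 1 (0.57), without DSS replicate 2 (0.85), without tumor replicate 1 (0.72), without tumor replicate 2 (0.70), without an intensity trend (0.71) or with a block for the arrays of high poly-A controls (0.49). Gstm6 lost its call without DSS replicate 1 (-0.90), without DSS replicate 2 (-0.94), without tumor replicate 1 (-0.88) or without tumor replicate 2 (-0.96). Gstm7 lost its call with no filter (1.07), without DSS replicate 1 (0.85), without tumor replicate 2 (0.70) or with a block for the arrays of high poly-A controls (0.97). Gstt2 lost its call without DSS replicate 1 (-1.07). Gstt3 lost its call without DSS replicate 2 (-0.90). Mgst1 lost its call without DSS replicate 2 (-0.93) or without tumor replicate 2 (-0.86). Mgst3 lost its call without DSS replicate 1 (-0.79), without DSS replicate 2 (-0.81) or without tumor replicate 2 (-0.56). Sult1b1 lost its call without DSS replicate 1 (-1.20). Of the 19 members called, 9 were called under all 19 alternatives: Gstm1, Gstm2, Gstm3, Gstt1, Mgst2, Sult1a1, Sult1c2, Sult1d1 and Ugt2b34.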

How the data were processed

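RNA of pooled crypts was measured on 6 Affymetrix arrays. The authors deposited signal intensity values per probe set on a linear scale, made with MAS5 per the submitters' processing notes (no version is named in those sources), with no detection calls. Of 22690 probe sets, 64 controls, 691 with several symbols and 1555 with none were not tested. For all 38 members the gene identifier was found in RefSeq's table. The scale was log2(intensity + 17.8), the 25th percentile of all values, with no further normalization. The filter kept probe sets brighter than the array median on 2 or more arrays, and each gene was tested on its probe set of highest mean (7456 genes). All groups were fitted together with limma 3.58.1 (R 4.3.3), using an intensity trend, Benjamini-Hochberg adjustment over all genes and a threshold of 0.05, tests 2-sided. The fit was tested on simulated data. Figures used Python 3.11.15 and matplotlib 3.10.9.

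Full values are given for members called in any comparison and the member of smallest p for DSS. For up to 3 called genes of smallest p per pathway list the difference and adjusted p are given, with array values for some. The members and lists were chosen with earlier results of these data known. Alternatives covered scaling, pseudocount, filter, probe set handling, the trend, the samples fitted, blocks and each array left out. Nothing in the labels says that arrays of the same number share animals or a day. Protein sequences were not used here.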

Additional observations from a re-analysis of the deposited data

How the results depend on the processing

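In each comparison 19 alternatives were run. Against control, tumor crypts had 17 members lower, and 8 members kept their calls under all 19: Gstm2, Gstm3, Gstt1, Sult1a1, Sult1b1, Sult1c2, Sult1d1 and Ugt2b34. Leaving out each array in turn gave 9 (without control replicate 2) to 16 members lower and 0 to 3 higher against control, with 10 lower without tumor replicate 2, and 11 to 16 lower and 0 to 2 higher against DSS. A left-out array leaves 1 array in its group, which is assumed to vary like the others. The 3 members higher against control became 1 with median centring, 1 with no filter and 1 with a block for the arrays of high poly-A controls. The 3 higher against DSS became 1 with median centring, 0 with no filter, 1 without an intensity trend and 0 with that poly-A block. No called gene that is named reversed its sign against control or DSS in any alternative, and members that were not called were not followed across them. The median over tumor minus control members was -0.57 with no filter, which adds the 12 genes below the filter, and -0.67 without tumor replicate 2.

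For DSS minus control the count stayed at 0 in all alternatives but one. With the replicate number as a block in a fit of these groups alone, 1 member was lower, Sult2b1 (limma, adjusted p = 0.0485, range over alternatives 0.0485 to 1.0). That fit called 124 genes in all and rests on 1 residual degree of freedom. The replicate block in all 3 groups called 0. Deviations of same-numbered arrays correlated at 0.45 between control and DSS, 0.08 between control and tumor and 0.44 between DSS and tumor (over genes). The labels give no pairing, so the main fit did not use the numbers. Any effect shared by same-numbered arrays therefore stayed in the residual spread of that fit, also for DSS minus control. Under the replicate block, members lower in tumor crypts were 17 and 16 against control (all groups; 2 groups) and 16 and 18 against DSS.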
